A study of Mus musculus with 4 samples.

Results

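The stretch of mouse chromosome 9 that carries Yap1, Birc2 and Birc3 was measured for DNA copy number in 4 liver tumours. It was taken as every genomic probe with a start from 7.7 to 8.1 Mb on chromosome 9 (mm9), by position alone. These were 40 of the 170305 probes of the array. The locus itself was chosen with earlier results of these data known. Of the 40 probes, 7 carried the name Yap1, 2 the name Birc2 and 2 the name Birc3. Another 17 had no gene name, and the rest carried the names Tmem123, 9230110C19Rik, AK142592, AK047074 and AK129341. All 4 tumours came from male C57BL/6J mice that had lost Trp53, the p53 gene, in the liver, and no treatment was given. Tumour DNA (Cy5, red) competed on each array with a spleen DNA pool from 3 littermates of the same sex (Cy3, green). That pool is itself labelled Trp53-/-, and the labelling protocol names liver as its source. The promoter behind the liver-specific loss, the age of the mice and the share of tumour cells per sample are not given in the sources used here. A positive log2 ratio stands for a surplus of tumour DNA over reference DNA, averaged over all cells of the sample. A change in few cells and a smaller change in many cells cannot be told apart.

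Yap1 encodes a transcriptional co-activator that works with TEAD proteins to drive growth genes and is held out of the nucleus by the Hippo kinases. Birc2 and Birc3 encode cIAP1 and cIAP2, ubiquitin ligases of the inhibitor of apoptosis family that act at TNF receptor complexes and limit cell death. The region is known as a focal amplicon in some mouse liver tumours that lack p53, and the matching human region is amplified in a number of cancers. Chromosome 9 outside the locus averaged -0.31, -0.19, -0.10 and -0.02 in tumours 1 to 4, so it was close to the reference in tumour 4. The question was therefore whether the locus was gained in any tumour or followed its chromosome.

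The measurement rests on short oligonucleotides, and few of them lie in the 2 Birc genes. The 4 Birc probes are shown because they carry all the information on these genes, and the Yap1 probes with the highest and the lowest mean over the tumours are shown beside them. They are printed as the array files give them, with positions on mm9, and capitals mark the G and C bases that make up the GC content.
Birc2 (chr9:7822664-7822723): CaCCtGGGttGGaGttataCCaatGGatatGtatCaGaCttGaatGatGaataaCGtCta
Birc2 (chr9:7835042-7835101): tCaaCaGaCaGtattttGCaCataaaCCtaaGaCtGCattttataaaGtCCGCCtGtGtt
Birc3 (chr9:7855408-7855467): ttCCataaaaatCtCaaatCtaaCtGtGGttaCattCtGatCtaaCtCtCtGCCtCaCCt
Birc3 (chr9:7862355-7862414): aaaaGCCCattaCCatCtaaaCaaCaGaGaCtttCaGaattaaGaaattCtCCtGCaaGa
Yap1 (chr9:7943514-7943573): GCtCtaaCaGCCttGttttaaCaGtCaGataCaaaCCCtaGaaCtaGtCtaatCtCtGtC
Yap1 (chr9:7995336-7995395): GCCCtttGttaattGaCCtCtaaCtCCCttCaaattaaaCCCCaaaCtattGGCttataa
The strand of a probe is not given in the sources used here. Birc2 and Birc3 are close paralogs, but the longest run of bases that a Birc2 probe shared with a Birc3 probe, on either strand, was 7. Each of the 6 probes shown has 60 bases with 21 to 24 G or C. Over the 40 probes the GC content ran from 33.3% to 40%, with a median of 36.7%, equal to that of all autosomal probes. No mm9 gene annotation was used, so exons, introns and UTRs are not given.

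Signal at the locus was above background on every array, though some calls changed with the background correction, as given in the last section. All 40 probes were well above background in both channels on all 4 arrays, and none was saturated. Median red signals over background at the locus were 1069, 512.9, 491.7 and 1320.2 for tumours 1 to 4, and median green signals were 675.4, 395.2, 174.1 and 595.1. Noise between neighbouring autosomal probes (SD of the log2 ratio) was 0.26, 0.32, 0.16 and 0.17. Tumours 1 and 4 lay on 1 slide scanned on 1 day, and tumours 2 and 3 had a slide each. There was 1 array per tumour, and their number limits the precision. The 2 Trp53 probes averaged 0.52, 0.32, -0.16 and 0.29 in tumours 1 to 4, with 1 of 4 tumours below 0. Both channels carry the Trp53-/- label and the extent of the deletion relative to these probes is not given in the sources used here, so they do not check the labels.

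The locus was not called gained in any of the 4 tumours. The log2 ratio of its 40 probes averaged -0.25 ± 0.04, -0.15 ± 0.05, -0.11 ± 0.03 and -0.0004 ± 0.026 for tumours 1 to 4 (errors are SEs over probes). Expressed as a share of the reference, this was 84.2%, 90.2%, 92.6% and 99.97%. Tumour 1 had the lowest level and tumour 4 stood at the level of the reference. The 95% intervals over probes (t distribution) were -0.33 to -0.16, -0.25 to -0.05, -0.16 to -0.06 and -0.05 to 0.05. In tumour 4 the upper end was thus 103.7% of the reference. These intervals cover the spread between probes of 1 array and not the spread between tumours. A log2 ratio of 0.58, that of 3 copies against 2 in every cell, lay above all 4 upper ends. A gain in part of the cells would read lower than 0.58, so this comparison does not cover one. For scale, 1 copy against 2 in every cell would read -1, while the rest of chromosome 9 averaged -0.31 in tumour 1. Of the 40 probes, 32, 27, 32 and 18 were below 0.

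Averaged over the tumours the locus was at -0.13 ± 0.10 (SD, n = 4). It was below 0 in tumours 1, 2 and 3, while tumour 4 was at 0 within its error and turned to 0.000086 under normexp background correction. Tested as 1 of 5731 autosomal windows of 0.4 Mb with limma, it did not pass (adjusted p = 0.20, unadjusted p = 0.020, 95% interval -0.23 to -0.03). Of all windows 0.0349% passed (2 windows, both lower), and 19.9% had an unadjusted p under 0.05. An exact sign-flip test (two-sided) gave p = 0.13, the smallest that 4 tumours allow, which counts tumour 4 as below 0. Tumours 2 and 3 differed by less than the standard error of tumour 2. Tumour 1 lay below tumour 4 by 0.25 on the log2 scale at the same 40 probes, with 36 of 40 probes lower. Tumours 1 and 4 shared a slide.

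Relative to its chromosome the locus showed no departure that passed a test. The other 8696 probes of chromosome 9 averaged -0.31, -0.19, -0.10 and -0.02 in tumours 1 to 4, the same order as the locus. The locus minus the rest of the chromosome was 0.06 ± 0.04 (SE over probes), 0.05 ± 0.05, -0.01 ± 0.03 and 0.02 ± 0.03 in the same order. In tumours 2, 3 and 4 these differences were no larger than their standard errors, and in tumour 1 the difference exceeded it but stayed below 2 of them. The mean difference was 0.03 ± 0.03 (SD, n = 4), above 0 in 3 of 4 tumours. With limma the 95% interval was -0.02 to 0.08 (adjusted p = 0.44; two-sided exact sign-flip p = 0.25), where 0.192% of the windows passed. The upper end of the interval lay below 0.58. The interval is for the mean over the tumours and does not cover a gain in a single tumour or in part of the cells.

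Against its near surroundings the locus stood higher in 3 tumours and lower in the other. The 142 probes within 1 Mb on both sides had means of -0.40, -0.26, -0.06 and -0.06 in tumours 1 to 4. The locus minus these flanks was 0.15 ± 0.05 (SE over probes), 0.11 ± 0.06, -0.05 ± 0.03 and 0.05 ± 0.03. Tumours 1, 2 and 4 therefore pointed one way and tumour 3 the opposite way. The mean was 0.07 ± 0.09 (SD, n = 4) with a 95% interval of -0.001 to 0.13, and limma did not call it (adjusted p = 0.16; two-sided exact sign-flip p = 0.25). Of all windows 9.74% passed this comparison. Without tumour 3 the difference was 0.10 and passed (adjusted p = 0.00082), but then so did 41.5% of all windows. Of the 23 windows up to the end of the segment that held the locus in tumour 1, the locus was the highest in tumours 1 and 2, 2nd highest in tumour 4 and 22nd in tumour 3. In tumour 4, whose chromosome 9 was within 0.03 of the reference, the locus was thus also among the highest of these windows.

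Over the whole of chromosome 9 the locus lay within the spread of the windows. Counted from the top of 298 windows it ranked 68, 75, 174 and 87 in tumours 1 to 4. Its distance from the mean of the windows was 0.80, 0.65, -0.26 and 0.53 SD of the windows. The highest window was another one in each tumour. In tumours 1 and 2 it was the window from 43300001 to 43700000, at -0.11 and 0.02. In tumour 3 the highest window lay from 80900001 to 81300000, at 0.07, and in tumour 4 from 103700001 to 104100000, at 0.14. The lowest windows reached -0.57 in tumour 1 (38900001 to 39300000) and -0.23 in tumour 3 (62500001 to 62900000). In tumours 2 and 4 the lowest was the window from 112500001 to 112900000, at -0.42 and -0.17. In every tumour the locus was nearer to the mean of the windows than to the highest or the lowest of them.

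Segmentation called the locus lost in 1 tumour. It joins neighbouring probes of like value into segments, and a segment of at least 5 probes was called lost at a mean of -0.2 or below, gained at 0.2 or above and amplified at 1 or above. In tumour 1 the locus lay inside a segment of 616 probes from 3046525 to 12733897 with a mean of -0.41, called lost. The other segments of chromosome 9 with at least 5 probes were called lost in tumour 1 as well, and the means over all of them ran from -0.46 to -0.24. In tumour 2 the whole chromosome was 1 segment at -0.19, just short of the threshold. In tumour 3 the segment ran from 3046525 to 20476410 at -0.06, and in tumour 4 from 3046525 to 23743553 at -0.03, neither of them called. Elsewhere on chromosome 9 the highest segment mean was 0.61 in tumour 3 and 0.66 in tumour 4, past the threshold for a gain. No segment ended inside the locus in any tumour. The locus was therefore called lost in 1 of 4 tumours and gained in 0 of 4. This call is that of the whole segment and not of the 3 genes. Their 11 probes averaged -0.10, 0.0004, -0.14 and 0.08 in tumours 1 to 4. The other 29 probes of the locus averaged -0.31, -0.21, -0.10 and -0.03 in the same order. For comparison, segments called lost held 9.26%, 4.46%, 0.143% and 0.0867% of autosomal probes in tumours 1 to 4, and segments called gained held 3.74%, 4.14%, 0.083% and 0.0805%. The call in tumour 2 depended on the setting: the locus was lost there too with centring on the mode (-0.23), with normexp background correction (-0.21), with a lower segmentation penalty (-0.26) and with a threshold of 0.1.

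An amplicon much shorter than 0.4 Mb was looked for in runs of 5 neighbouring probes. The highest of the 36 runs of the locus had means of -0.03, 0.15, 0.05 and 0.12 for tumours 1 to 4, so 0 of the runs reached the calling threshold of 0.2 in any tumour. In tumours 1 and 4 this run lay in Yap1 (7937019 to 7970282), in tumour 2 over Tmem123 and the probes before it (7756302 to 7790454), and in tumour 3 from Birc3 towards Yap1 (7862355 to 7911860). The highest run anywhere on chromosome 9 was at 0.14, 0.36, 0.61 and 0.66 in tumours 1 to 4. Of all runs on chromosome 9, 2.28%, 0.870%, 5.08% and 4.87% were as high as or higher than the highest run of the locus. These shares set the highest of 36 runs against single runs, so they are small in part through that choice. The highest single value among the 40 probes was 0.53, at a Tmem123 probe in tumour 2. Probes in the locus have a median spacing of 8.7 kb, and gains shorter than a few probes would not be seen.

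Yap1 was near the reference level in all 4 tumours. Its 7 probes averaged -0.07 ± 0.04, -0.02 ± 0.05, -0.04 ± 0.03 and 0.10 ± 0.03 for tumours 1 to 4 (SE over probes). The gene was therefore highest in tumour 4, and tumours 1 to 3 differed from one another by about their standard errors. Over probes the 95% interval in tumour 4 was 0.02 to 0.18, and in the other tumours it held 0. The lowest of its probe values was -0.25, in tumour 2, and the highest 0.25, in tumour 4. Over the tumours Yap1 was at -0.01 ± 0.07 (SD, n = 4) with 1 of 4 tumours above 0. In limma over 20003 autosomal gene names its adjusted p = 0.92, with a 95% interval of -0.12 to 0.11. Of these names 0.345% passed and 27.3% had an unadjusted p under 0.05.

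The Yap1 probes lay above the rest of chromosome 9 by 0.24 ± 0.04 (SE over probes), 0.17 ± 0.05, 0.07 ± 0.03 and 0.12 ± 0.03 in tumours 1 to 4. All 4 tumours showed the same direction, tumour 4 with its near-normal chromosome 9 included. The mean difference of 0.15 ± 0.07 (SD, n = 4), a comparison chosen after the values were seen, did not pass limma over all gene names (adjusted p = 0.11, unadjusted p = 0.013; two-sided exact sign-flip p = 0.13). Of all gene names 0.45% passed this comparison and 27.4% had an unadjusted p under 0.05. Without tumour 3 the difference was 0.18 and passed (adjusted p = 0.034), but then so did 28.1% of all gene names. Without tumours 1, 2 and 4 in turn it was 0.12, 0.14 and 0.16 and did not pass (limma, adjusted p from 0.30 to 0.36). Among the 1185 gene names of chromosome 9, 14.3%, 21.4%, 21.8% and 14.9% were at or above Yap1 in tumours 1 to 4. Counted from the highest name, Yap1 ranked 170, 253, 258 and 176, on the high side of its chromosome in each tumour but not at its top. The names differ in their number of probes, and means over few probes scatter more, so these ranks do not measure how far Yap1 stood out.

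Set against tumour 4 at the same probes, Yap1 was lower in tumours 1 to 3, as the chromosome was. This direction was fixed by the choice of tumour 4, which had the highest level both at Yap1 and over chromosome 9. It is therefore no separate sign that Yap1 followed the chromosome. Tumour 1 minus tumour 4 was -0.17 ± 0.04 (SE over probes) over the 7 Yap1 probes, with 7 of 7 below 0, and -0.29 over the rest of chromosome 9. Tumour 2 minus tumour 4 was -0.12 ± 0.07 at Yap1 against -0.17 for the chromosome, and tumour 3 minus tumour 4 was -0.13 ± 0.03 against -0.08. This comparison was chosen after the values were seen and cancels an effect that a probe has equally on both arrays. The pairwise correlations among tumours 1, 2 and 4 over the 40 probes ran from 0.71 to 0.80, beside 0.69 to 0.84 over all autosomal probes. Tumour 3 was at -0.15, -0.01 and 0.19 with tumours 1, 2 and 4, beside 0.09, 0.19 and 0.32 over all autosomal probes. Points of these correlations share the probe and the reference DNA.

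Birc2 was near or below the reference, and its level differed between tumours more than that of Yap1. Birc2 has 2 probes and Yap1 7, and means over fewer probes scatter more, so this does not show a difference between the genes. The 2 Birc2 probes averaged -0.19, 0.04, -0.34 and -0.02 for tumours 1 to 4. The first probe read -0.09, 0.10, -0.43 and 0.02, and the second -0.29, -0.01, -0.26 and -0.07. Both probes were thus lowest or near lowest in tumour 3, although chromosome 9 was lower in tumours 1 and 2. Over the tumours Birc2 was at -0.13 ± 0.18 (SD, n = 4) with 3 of 4 tumours below 0, and it did not pass limma (adjusted p = 0.30).

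Birc3, like Birc2, was lowest in tumour 3 and next lowest in tumour 1. Its 2 probes averaged -0.08, 0.04, -0.28 and 0.13 in tumours 1 to 4, with 2 of 4 tumours below 0. The first probe read 0.02, 0.11, -0.37 and 0.19, and the second -0.18, -0.04, -0.19 and 0.07. Its mean of -0.05 ± 0.18 (SD, n = 4) did not pass limma (adjusted p = 0.70). Counted over the probes within 50 kb of the gene as well (9 probes), Birc3 was at -0.15 (adjusted p = 0.13); over 15 such probes Yap1 was at -0.12 (adjusted p = 0.15). None of these values passed.

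The low values of Birc2 and Birc3 in tumour 3 formed, with an unnamed probe, the lowest run of 5 probes of the locus in that tumour. It lay from 7822664 to 7862414 and had a mean of -0.34. Its 4 Birc probes alone averaged -0.31. The unnamed probe was below 0 in every tumour (-0.58, -0.72, -0.42 and -0.31 in tumours 1 to 4). Of all runs of chromosome 9 in tumour 3, 1.58% were as low or lower. This run was picked as the lowest of 36, so the share is small in part through that choice. Segmentation did not set the run apart from the long segment around it. Against the other 29 probes of the locus the 4 Birc probes were at -0.21 ± 0.06 (SE over probes) in tumour 3, but 0.17 ± 0.08, 0.25 ± 0.07 and 0.09 ± 0.06 higher in tumours 1, 2 and 4. Without tumour 3, Birc3 minus the rest of chromosome 9 was 0.21 and passed (adjusted p = 0.023), as did 28.1% of all gene names. Over all 4 tumours it was 0.11 (adjusted p = 0.40), and without tumours 1, 2 and 4 in turn 0.069, 0.070 and 0.094 (limma, adjusted p from 0.65 to 0.76). Birc2 minus the rest of the chromosome was 0.12, 0.24, -0.24 and 0.0041 in tumours 1 to 4, with a mean of 0.03 (limma, adjusted p = 0.83). Its direction relative to the neighbours is therefore opposite in tumour 3, whose probe values also correlated least with those of the other arrays; the part of the array in this was not tested.

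Of the remaining gene names of the locus none passed limma over all gene names. Tmem123, which encodes a cell-surface membrane protein, had 3 probes at 0.05, 0.30, -0.24 and 0.02 in tumours 1 to 4. It was the highest gene of the locus in tumour 2, and its mean of 0.03 ± 0.22 (SD, n = 4) did not pass limma (adjusted p = 0.83). 9230110C19Rik, the current Cfap300, a gene needed for the assembly of ciliary motors, had 3 probes at -0.28, -0.30, -0.02 and -0.01. Its difference from the rest of the chromosome was 0.03, -0.10, 0.08 and 0.01, with no common direction. AK142592 (16 probes, 2 of them in the locus) and AK129341 (6 probes, 3 in the locus), transcript names of the array, had means of -0.16 ± 0.15 and -0.28 ± 0.23. Neither passed limma (adjusted p = 0.19 and adjusted p = 0.13).

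Of the 40 single probes, 4 passed limma over all autosomal probes, all of them lower, and 11 had an unadjusted p under 0.05. This is 10% of the probes, where 6.23% of all autosomal probes passed (4.49% lower) and 31.3% had an unadjusted p under 0.05. Of the 11 probes of Yap1, Birc2 and Birc3, 0 passed and 0 had an unadjusted p under 0.05. The lowest was the 1 probe of AK047074 (7798211 to 7798270), at -1.13, -0.98, -0.16 and -0.53 in tumours 1 to 4 (limma, adjusted p = 0.036). Tested over all gene names in place of all probes, the same values did not pass (limma, adjusted p = 0.090). The other 3 were unnamed probes that start at 7846683, 7928304 and 8013648, with means of -0.51, -0.39 and -0.35. All 4 were also low in tumour 4, where the locus as a whole was at the reference level. The count was 0 without tumour 1, 0 without tumour 2 and 0 without tumour 4, and 15 without tumour 3, with 6, 6, 10 and 17 probes at an unadjusted p under 0.05 in the same order. Without tumour 3, 35.5% of all autosomal probes passed.

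The genes around the locus were low in tumour 1, as was the chromosome. Of 24 listed neighbours, among them the matrix metalloproteinase cluster, 19 were measured, all on chromosome 9, which was called lost along its length in tumour 1. Their median was -0.41, -0.19, -0.06 and -0.03 in tumours 1 to 4, beside -0.28, -0.18, -0.12 and -0.01 over all gene names of chromosome 9. With limma 0 of the 19 passed, 6 had an unadjusted p under 0.05, and 17 had a mean below 0. Of the 1185 names of chromosome 9, 4 passed, 567 had an unadjusted p under 0.05 and 1052 had a mean below 0. Over all gene names 0.345% passed and 27.3% had an unadjusted p under 0.05. Of the 19, the highest was Tmem123 (0.03), which lies inside the locus. The lowest was Mmp1b, a matrix metalloproteinase gene, with 3 probes at -0.69, -0.62, -0.31 and -0.19. Cntn5, a neural adhesion gene with 125 probes, was at -0.43, -0.27, -0.01 and -0.03. Pdgfd, a growth factor gene with 23 probes, was at -0.43, -0.30, -0.06 and -0.08, and Trpc6, a calcium channel gene with 13 probes, at -0.43, -0.35, -0.01 and -0.09.

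The other genes of the Hippo pathway gave no call either. Of 28 listed genes 26 were measured and 0 passed limma over all gene names and 8 had an unadjusted p under 0.05, with 9 means above 0 and 17 below. Their median mean was -0.04, beside -0.0053 for all gene names, of which 0.345% passed and 27.3% had an unadjusted p under 0.05. Members in called segments lay on chromosomes 9, 12 and 15. Stk3, the kinase MST2 upstream of YAP, lies on chromosome 15 and was in segments called gained in tumours 1 and 2, with 28 probes at 0.25, 0.29, 0.11 and 0.01. Its binding partner Sav1 on chromosome 12, a scaffold of the kinase, was in segments called lost in the same tumours. The 2 Sav1 probes averaged -0.71, -0.54, -0.06 and -0.16. These calls are those of whole segments and not of single genes. Averaged over the tumours, Stk3 minus the rest of chromosome 15 was 0.0077, and Sav1 minus the rest of chromosome 12 was -0.22. Frmd6, an upstream activator on chromosome 12, was at -0.33, -0.45, -0.18 and -0.07. Amotl1 and Amotl2, which bind and retain YAP, share chromosome 9 with it and were called lost in tumour 1, with means over the tumours of -0.06 and -0.27. The highest mean was that of Tead2, a DNA-binding partner of YAP, with 2 probes at 0.35, 0.41, -0.003 and 0.14. Wwtr1, which encodes the YAP paralog TAZ, was at -0.07, -0.11, -0.16 and -0.14.

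Among the other inhibitor of apoptosis genes, 7 of 8 listed members were found among the autosomal gene names. Names on the X chromosome were left out of the tests, so X-linked Xiap did not enter. Of the 7, 0 passed limma and 1 had an unadjusted p under 0.05, beside 0.345% and 27.3% of all gene names. Birc7, with 1 probe, was highest at 0.31, 0.23, 0.21 and 0.28, with a mean of 0.26 (adjusted p = 0.071). Naip1, an inflammasome receptor gene of the same family, was lowest at -0.17 on average. Birc5, which encodes survivin, had 1 probe with a mean of 0.09, and Birc6 had 18 probes with a mean of -0.05. None of the 7 lay in a called segment in any tumour.

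Of 16 partners and antagonists of cIAP1 and cIAP2, 12 were found among the autosomal gene names. Of these, 0 passed limma and 2 had an unadjusted p under 0.05, beside 0.345% and 27.3% of all gene names. The median of their means was 0.08, beside -0.0053 for all gene names. Traf2, the adaptor that recruits both proteins to the receptor, was at 0.27, 0.19, -0.10 and 0.14. Traf3 on chromosome 12, which works with them to degrade the kinase of Map3k14, was at -0.24, -0.22, -0.16 and 0.04, and was called lost in tumour 2. Tnfrsf1a, the TNF receptor gene, had the highest mean (0.20). Diablo, which encodes the antagonist of these inhibitors, had 1 probe with a mean of -0.18.

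Outside chromosome 9, the 3 gene names with at least 3 probes whose values over the 4 tumours came closest to those of the locus all lay on chromosome 12. Closeness was the Euclidean distance over the 4 tumours, among 8467 gene names. They were ENSMUST00000085382, a transcript name (distance 0.025), Sdccag1 (0.032) and Pik3cg, a lipid kinase gene (0.036). Pik3cg was at -0.25, -0.13, -0.13 and -0.01 in tumours 1 to 4.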

How the data were processed

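Genomic DNA of 4 liver tumours was measured on 2-colour Agilent arrays. The scanner files hold the log10 ratio of red over green, which the authors' software, Agilent Feature Extraction 10.7.3.1 per the submitters' processing notes, computed after background was subtracted and detrended; per the file headers, the dyes were scaled linearly. The deposited intensity columns are spot and background signals. The deposited value table, also log10, matched these ratios for 100% of the 180880 spots on every array, with a tolerance of 0.51% for rounding, so its scale and direction are known. Ratios were turned to log2. Control spots and outlier spots (93 to 126 per array) were left out, spots of a probe averaged and each array centred on its autosomal median.

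Windows of 0.4 Mb with at least 10 probes (flanks of at least 20 probes), gene names and probes were tested against 0 with limma 3.58.1 in R 4.3.3 (moderated intercept, Benjamini-Hochberg, threshold 0.05). The tumours came from separate mice. The reference was 1 pool, so its own spread is left out. Segments came from exact penalised least squares (penalty 4 times the log of the probes of a chromosome times the noise variance). The methods were tested on simulated data. Gene names are those of the array; 4 listed genes were found by an older symbol in a RefSeq table of GRCm38.p6, which served for names only. Named were Yap1, Birc2, Birc3, all names in the locus, extremes of each list, the 3 most alike genes and the extreme windows; other genes of the lists are examples chosen after their values were seen. One list member that the rule would name is not reported here. The locus, lists and tests were chosen with earlier results of these data known. Alternatives were normexp (offset 50), mode centring, the value table, bright probes only, GC correction, each tumour left out, medians, other windows, flanks, thresholds and penalties.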

Additional observations from a re-analysis of the deposited data

How the results depend on the processing

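The mean of the locus over the tumours kept its direction and stayed short of the threshold under all 12 alternatives (-0.17 to -0.09). The difference of the locus from the rest of the chromosome did so under all 11 (0.02 to 0.06). Mode centring takes a constant from each array, so it cannot change a difference within an array. The value table holds the same ratios after rounding, so these settings are weak checks. The difference from the flanks ran from 0.06 to 0.08, and from 0.039 to 0.10 with each tumour left out, with a call only without tumour 3. Yap1 ran from -0.12, with probes within 50 kb, to -0.0041, and with each tumour left out from -0.044 to 0.013, turning sign without tumours 1 (0.013) and 3 (0.00055), and never passed. Birc3 turned to 0.011 under normexp and ran from -0.11 to 0.031 with each tumour left out. Birc2 kept its sign under all 10 (-0.19 to -0.06). Relative to the rest of chromosome 9, an added comparison, Birc2 (0.03 over all 4 tumours) turned sign without tumour 1 (-2.7e-05) and tumour 2 (-0.040), and it was 0.12 without tumour 3. In the same comparison Yap1 ran from 0.12 to 0.18 and Birc3 from 0.069 to 0.21 with each tumour left out, each with a call only without tumour 3. The locus probes past the threshold were 13 under normexp, where 52148 of 161460 autosomal probes passed, and ranged from 0 to 15 with each tumour left out. Tumours with the locus in a called segment were 2 under normexp, mode centring, a penalty of 2 times and a threshold of 0.1, always tumours 1 and 2 and always lost. The causes were not tested. No paired analysis was possible because there is only 1 group of tumours. The slide as a random block could not be fitted: with 4 arrays on 3 slides limma's duplicateCorrelation gave no value. Within the shared slide, tumour 1 had the locus at -0.25 and tumour 4 at -0.0004.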
